A study of Mus musculus with 12 samples.

Results

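Of the 121336 open chromatin regions counted by ATAC-seq in mouse bone marrow progenitors, 2271 were more accessible in GMPs than in LSKs of WT mice and had a much lower level in the GMPs of mutant mice. They were chosen from the counts themselves. Counts were divided by the total of their library and scaled to CPM (counts in a library of fixed standard size), averaged over the 3 libraries of a group, and 0.25 was added. A region was a member when WT-GMP was at least 2, WT-GMP was at least 3 times WT-LSK, URE-GMP was at most 1/3 of WT-GMP, and URE-LSK was under 3 times WT-LSK. WT-GMP stands in both of the first ratios, so a high WT-GMP value pushes a region over both thresholds together. The last criterion removed 0 regions. All ratios between WT and URE, and between WT-GMP and WT-LSK, are given as descriptions with no test, since they chose the members. In a sorted population a lower count can come from fewer cells with the site open or from a less open site in each cell, and these cannot be told apart here.

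ATAC-seq reads out where the transposase Tn5 can reach the DNA. The 12 libraries came from LSKs (lineage-negative, Sca-1 and c-Kit positive stem and early progenitor cells) and GMPs (lineage-negative, Sca-1 negative, c-Kit and Fc gamma receptor positive granulocyte-monocyte progenitors), 3 libraries per genotype and cell type. The mutant mice, labelled UREd/d and called URE, carry a germline deletion of the upstream regulatory element of Spi1 on both alleles, in all cells, and were compared with WT littermates on the C57BL/6 background. The same-numbered libraries are not stated to share a mouse, and GMPs and LSKs of all groups were enriched for c-Kit before sorting. Total counts ran from 23072701 to 62204826, so that 3 counts equalled 0.0482 to 0.130 CPM. The region counted over the deleted element held 38.4 to 45.6 CPM in the 6 WT libraries and at most 6 counts in any URE library. None of the 5 regions around it was a member.

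PU.1, the ETS family transcription factor encoded by Spi1, binds short sites in myeloid enhancers and opens chromatin there together with partner factors. It binds alone at sites with the core GAGGAA, and with IRF4 or IRF8 at composite sites in which an ETS and an IRF sequence lie next to each other. C/EBP factors bind other sequences in the same enhancers and are needed for the GMP stage. GMPs give rise to neutrophils and to monocytes, and many genes of both lineages gain enhancer accessibility between LSK and GMP.

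The sequences below were chosen because they show these motifs inside strong members and inside members near myeloid genes. Each is 121 bases of the GRCm38 plus strand from RefSeq, centred on the match nearest to the middle of the region. Capitals mark matches on either strand to the PU.1 motif GAGGAAGT or to the ETS-IRF composite motif GGAANNGAA, where N is any base.

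chr6:29524155-29524275 (Irf5): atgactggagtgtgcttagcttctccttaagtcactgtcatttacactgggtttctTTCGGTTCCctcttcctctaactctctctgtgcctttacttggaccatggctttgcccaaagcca
chr9:47734154-47734274 (Cadm1): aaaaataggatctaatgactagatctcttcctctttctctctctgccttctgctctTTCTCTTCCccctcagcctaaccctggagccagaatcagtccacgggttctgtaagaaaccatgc
chr2:70622426-70622546 (Gorasp2): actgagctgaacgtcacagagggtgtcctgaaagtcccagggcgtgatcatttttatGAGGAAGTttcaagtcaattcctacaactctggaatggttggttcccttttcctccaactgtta
chr3:96300831-96300951 (Fcgr1): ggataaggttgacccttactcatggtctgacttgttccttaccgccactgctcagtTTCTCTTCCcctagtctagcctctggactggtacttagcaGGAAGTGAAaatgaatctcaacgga
chr10:19033791-19033911 (Tnfaip3): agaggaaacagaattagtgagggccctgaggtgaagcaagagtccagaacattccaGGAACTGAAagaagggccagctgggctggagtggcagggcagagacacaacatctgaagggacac
chr9:123953690-123953810 (Ccr1): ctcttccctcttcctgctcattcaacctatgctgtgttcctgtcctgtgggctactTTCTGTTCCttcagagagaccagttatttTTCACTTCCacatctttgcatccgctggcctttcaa
chr9:32500974-32501094 (Fli1): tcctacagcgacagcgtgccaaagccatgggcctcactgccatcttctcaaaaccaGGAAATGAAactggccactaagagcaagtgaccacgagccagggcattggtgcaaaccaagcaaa
chr2:80524402-80524522 (Nckap1): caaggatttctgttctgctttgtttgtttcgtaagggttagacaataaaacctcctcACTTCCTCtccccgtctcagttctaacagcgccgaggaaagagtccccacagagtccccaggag
chr13:106760696-106760816 (Ipo11): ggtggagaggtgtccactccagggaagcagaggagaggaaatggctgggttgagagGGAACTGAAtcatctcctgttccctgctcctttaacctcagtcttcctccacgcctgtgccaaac

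The windows near Gorasp2 and Nckap1 hold a PU.1 motif, and the other 7 hold 1 or 2 composites. The last window lies in a member near Ipo11 that behaved differently from nearly all others and is described further on. A match is a string of letters and not evidence of binding.

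The GMP and LSK labels were checked at promoter regions of marker genes. The summed level at 13 promoter regions of 7 of 8 GMP markers (among them Mpo, Elane, Prtn3 and Ctsg, genes of primary granules) was 482 to 624 CPM in the GMP libraries of WT and 728 to 815 CPM in those of URE. It was 101 to 113 CPM in the LSK libraries of WT and 75.3 to 141 CPM in those of URE. Not every gene followed the sum between the GMP groups. Means in WT-GMP and URE-GMP were 342 and 504 CPM at Mpo and 49.1 and 98.4 CPM at Ctsg. Cebpe, Csf3r and Elane were also higher in URE-GMP. Prtn3 (70.6 and 68.9 CPM) and Ms4a3 (17.2 and 11.0 CPM) were not. At 14 promoter regions of 8 of 8 monocyte and dendritic cell markers the summed level was 146 to 158 CPM in WT-GMP and 91.0 to 109 CPM in URE-GMP. The LSK libraries held 118 to 126 CPM (WT) and 99.7 to 112 CPM (URE). None of these 8 markers was at 0 in any group, and 1 of the 14 regions, at Cx3cr1, was itself a member. The summed level of this marker list moved in the same direction as the members between the GMP groups, but not at every gene. Means in WT-GMP and URE-GMP were 49.4 and 51.6 CPM at Klf4 and 4.25 and 3.78 CPM at Ccr2. Csf1r, Ly86, Ciita, Irf8, Cd74 and Cx3cr1 were lower in URE-GMP.

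The LSK markers (20 promoter regions of 7 of 8 genes) held 435 to 463 CPM in LSK and 309 to 356 CPM in GMP of WT, and 446 to 487 and 278 to 293 CPM in those of URE. Erythroid markers (3 of 4 genes) held 23.2 to 29.4 CPM in GMPs of WT and 15.7 to 16.9 CPM in GMPs of URE, with 22.6 to 26.7 and 22.2 to 25.2 CPM in LSKs. Mast cell or basophil markers (2 of 5 genes) were higher with the deletion, at 10.3 to 13.4 CPM in WT and 22.9 to 32.4 CPM in URE for GMPs, and 7.84 to 12.2 and 23.3 to 31.0 CPM for LSKs. B cell markers (5 of 6 genes) held 72.1 to 84.1 and 83.6 to 89.1 CPM in GMPs, and T cell markers (2 of 4 genes) 11.8 to 17.1 and 16 to 18 CPM. In LSKs these were 61.2 to 66.5 and 70.9 to 75.8 CPM for B cell markers and 9.67 to 12.6 and 14 to 14.8 CPM for T cell markers. The part of these marker lists in the results was not tested.

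In WT mice the members were little accessible in LSKs and above the median region in GMPs. The group means had a median over members of 0.654 CPM for LSK and 3.91 CPM for GMP, with quartiles of 2.72 and 6.24 CPM in the latter and a highest value of 34.5 CPM. In URE mice the medians were 0.125 CPM in LSK and 0.544 CPM in GMP. Over all 121336 regions the 4 medians ran from 2.55 to 3.04 CPM, so the members were sites of low accessibility in every group but WT-GMP. The ratio of WT-GMP to WT-LSK had a median of 4.33 and the ratio of URE-GMP to WT-GMP a median of 0.204. All 3 URE-GMP libraries lay below all 3 WT-GMP libraries in 2270 of the 2271 members, where the rule chose for this difference and 35.5% of all regions showed the same order.

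**Figure D1:**
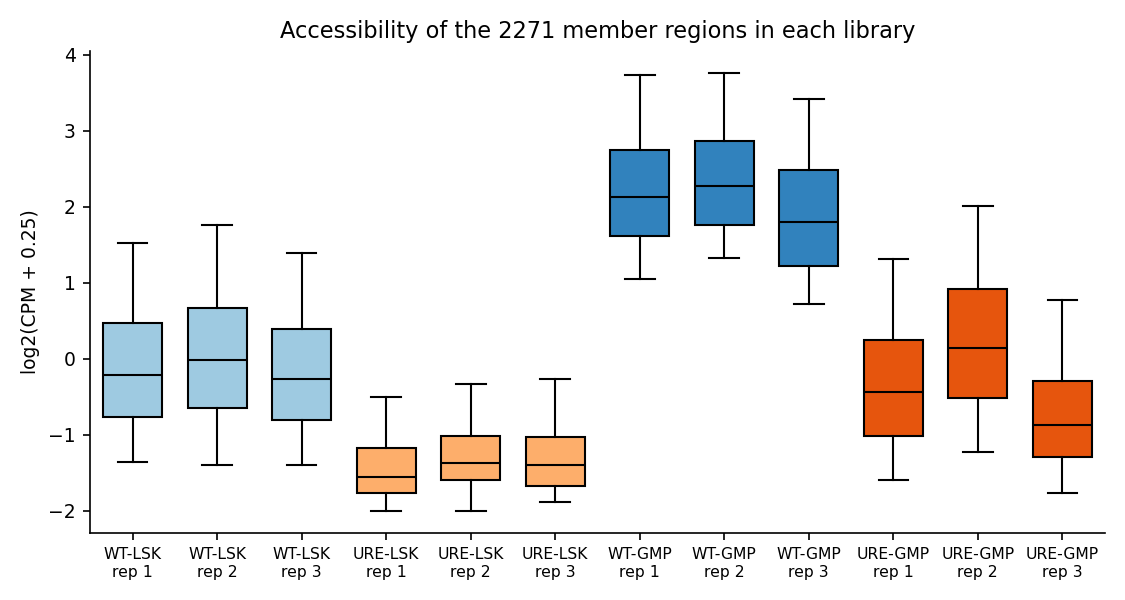
Accessibility of the 2271 members as log2(CPM + 0.25) in each of the 12 libraries. Boxes span the quartiles with the median as a line, and whiskers run from the 5th to the 95th percentile. The 3 WT-GMP libraries stand above all others, and among the URE-GMP libraries replicate 2 is the highest.

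The label given to these regions, that they fail to open in mutants, was met in absolute level but not in direction. Most members did gain accessibility between LSK and GMP in URE mice, from a lower start and to a lower end. The contrast of URE-GMP with URE-LSK was not used by the rule, although both groups enter it through other ratios and a member must have a low URE-GMP. In edgeR's quasi-likelihood test, with Benjamini-Hochberg adjustment over all regions, 1804 members (79.4%) were called higher in URE-GMP than in URE-LSK, against 27.6% of all regions. 3 members were called lower, against 21.6% of all regions, and 464 were not called. The fitted log2 fold change had a median of 2.24 over the members (quartiles 1.48 and 2.98) and of 0.03 over all regions. In WT the same step had a median of 2.59, and it was the smaller of both steps in 759 members.

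On the scale of counts the gain was small. The members gained a median of 3.25 CPM between LSK and GMP in WT and 0.407 CPM in URE, and the URE gain was a median of 13% of the WT gain of the same region. The URE-GMP mean was still under the WT-LSK mean in 1344 members (59.2%). The 3 URE-GMP libraries lay above the 3 URE-LSK libraries in 1499 members, against 35.1% of all regions. With 0.25 CPM added, the ratio of URE-GMP to URE-LSK had a median of 2.05, against 4.33 for WT-GMP to WT-LSK. Low counts weigh on the fitted values, since 305 members had at most 3 counts in each URE-LSK library and 4 had 0 in all of them. With those regions set to the floor of 3 counts per library the median log2 step was 2.13, and over the 950 members with more than 3 counts in each URE-LSK library it was 1.86, with 737 of them (77.6%) called higher and a WT median of 2.37.

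URE-GMP replicate 2 stood apart from the other libraries of its group. Members took up 0.285% of its counts, against 0.165% and 0.104% in replicates 1 and 3, and their median level was 0.852, 0.489 and 0.296 CPM in replicates 2, 1 and 3. This library was the highest of its group in 86.0% of members and in 36.8% of all regions. Replicate 3 was the lowest in 79.5% of members and in 42.7% of all regions. Without replicate 2, 1368 members (60.2%) were called higher in URE-GMP than in URE-LSK, the median step was 1.69, and the median URE-GMP level was 0.389 CPM. The share of all regions called in that smaller fit is not given here, and the 27.6% belongs to the fit with all 12 libraries. In WT-GMP the members took up 1.21%, 1.30% and 0.962% of the counts in replicates 1, 2 and 3. The order of libraries was similar there. WT-GMP replicate 2 was the highest in 61.6% of members and replicate 3 the lowest in 77.0%, against 31.8% and 33.8% of all regions. Replicate 2 was the highest in 52.7% of members in WT-LSK and 41.5% in URE-LSK, against 32.3% and 35.6% of all regions.

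The lower start was present in LSKs already. URE-LSK was under WT-LSK in 2244 members, and the 3 URE-LSK libraries lay below the 3 WT-LSK libraries in 1941, against 34.5% of all regions. The fitted log2 difference between URE-LSK and WT-LSK had a median of -2.22 over the members and of 0.14 over all regions, and the difference between URE-GMP and WT-GMP a median of -2.62. With 0.25 added, the URE-LSK level was at most 1/3 of the WT-LSK level in 667 members, and between 2/3 and 1.5 times that level in 375. It was more than 1.5 times WT-LSK in 0 members, although the rule allowed up to 3 times.

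A comparison set of 2941 regions passed the same criteria in WT and had a URE-GMP level between 2/3 and 1.5 times that of WT-GMP. As in the members, URE-LSK had to be under 3 times WT-LSK. In LSKs their median level was 0.70 CPM for WT and 0.554 CPM for URE, and in GMPs it was 5.24 and 5.58 CPM. In these regions the median fitted log2 step was 3.47 in URE and 2.79 in WT, and 2906 of them (98.8%) were called higher in URE-GMP than in URE-LSK. They were chosen for a URE-GMP level near a high WT-GMP level, which by itself makes this step large, so the share is a description and no test against the members. The difference between both sets in URE-GMP was set by how they were chosen. Members and comparison regions also stood apart in URE-LSK, with medians of 0.125 and 0.554 CPM, while their WT-LSK medians were close. Both sets are part of the 10245 regions that passed the WT criteria.

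**Figure D2:**
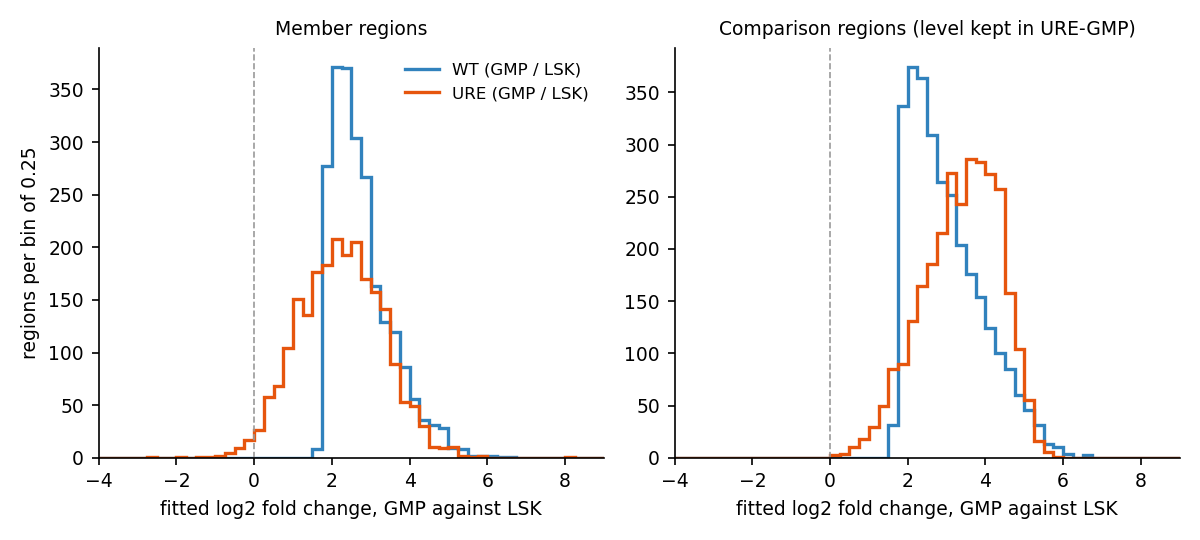
Number of regions by fitted log2 fold change of GMP against LSK, in bins of 0.25, for the 2271 members (left) and the 2941 comparison regions (right), in WT and in URE. In the members the medians of the fitted values are 2.24 in URE and 2.59 in WT, and only a small part of the URE distribution lies below 0. Without URE-GMP replicate 2 the URE median was 1.69. With 0.25 CPM added to the group means, the median ratio of GMP to LSK was 2.05 in URE and 4.33 in WT.

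The choice was also repeated with 2 libraries per group and the levels read in the library left out. This chose 2150, 2354 and 2354 regions when replicates 1, 2 and 3 were left out, of which 88.6%, 83.1% and 85.6% were members. In the left-out libraries the median log2 ratio of WT-GMP to WT-LSK was 2.16, 2.16 and 1.89, and that of URE-GMP to WT-GMP was -2.47, -1.92 and -2.50. Over all regions these medians ran from -0.12 to -0.04 and from -0.11 to -0.02. Both folds were again passed in 74.9%, 56.5% and 66.6% of the chosen regions.

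The member with the highest WT-GMP level was chr3:105046734-105047356, in an intron of Cttnbp2nl, which encodes a cortactin-binding protein. WT libraries held 8.0, 9.10 and 7.86 CPM in LSK and 35.3, 35.6 and 32.5 CPM in GMP. URE libraries held 0.340, 0.711 and 0.282 CPM in LSK and 2.47, 6.53 and 1.09 CPM in GMP. All 4 groups stood apart from each other, with URE-GMP between URE-LSK and WT-LSK, and the fitted log2 step in URE was 3.05 ± 0.51 (SE, n = 3, edgeR adjusted p = 6.57e-05). Without URE-GMP replicate 2 it was 2.10.

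The region chr6:29524000-29524622 lay 2003 bp upstream of Irf5, a transcription factor of the interferon and Toll-like receptor responses. In WT it read 7.36, 11.0 and 7.92 CPM in LSK and 30.5, 28.2 and 29.2 CPM in GMP. In URE it read 0.386, 0.520 and 0.542 CPM in LSK and 1.65, 6.09 and 0.546 in GMP. The URE-GMP libraries spread widely, and the lowest of them barely exceeded the highest URE-LSK library (log2 step 2.63 ± 0.60, edgeR adjusted p = 0.00106). Without replicate 2 of URE-GMP the step was 1.26. Its composite match is shown above.

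The region chr9:47733691-47734539, in an intron of the adhesion molecule gene Cadm1 and 203318 bp from its start site, was among the strongest in WT-GMP and had the lowest ratio of URE-GMP to WT-GMP of all members. WT-GMP libraries held 30.8, 30.8 and 24.9 CPM and URE-GMP libraries 0.938, 1.41 and 0.182 CPM. With 0.25 added the difference was 26.6-fold, and in LSK, where WT held 9.59, 8.15 and 3.69 CPM and URE 0.136, 0.219 and 0.130, it was 18-fold.

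A different pattern was seen at chr5:150443837-150445791 in an intron of Fry, a gene for a large microtubule-binding protein, and at chr1:40294412-40295481 in an intron of Il1r1, the signalling receptor of interleukin-1. At Fry the levels rose in WT from 1.79, 2.51 and 3.0 CPM to 22.7, 35.7 and 25.5, and in URE from 0.590, 0.383 and 0.542 to 0.877, 1.35 and 1.02. At Il1r1 WT libraries went from 1.62, 1.91 and 1.71 to 28.2, 23.9 and 18.4 CPM, and URE libraries from 0.272, 0.164 and 0.347 to 1.16, 1.88 and 0.477. Here the WT step was the larger one, with fitted log2 values of 3.58 at Fry and 3.83 at Il1r1, against URE steps of 1.16 ± 0.28 and 2.23 ± 0.43 (edgeR adjusted p = 0.00177 and 0.000223). The difference between the steps of a region was not tested, because the WT step was chosen by the rule.

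The reverse held at chr2:70622187-70622797, 38779 bp upstream of Gorasp2, the gene of a Golgi stacking protein. It read 24.7, 29.6 and 23.9 CPM in WT-GMP against 6.38, 7.75 and 5.55 CPM in URE-GMP, the highest URE-GMP level among the 8 strongest members. From URE-LSK levels of 0.181, 0.219 and 0.477 CPM it rose by 4.52 ± 0.28 on the log2 scale (edgeR adjusted p = 5.36e-09, the smallest of all members), against a WT step of 3.73. Members in an intron of Ambp (chr4:63151051-63151580) and 5071 bp upstream of Colq (chr14:31596414-31596852, in an intron of Gm49387) followed it, with URE steps of 3.62 ± 0.25 and 4.02 ± 0.28 (edgeR adjusted p = 1.19e-08 and 1.29e-08). The other strong members were chr6:116679277-116679937, 5325 bp upstream of Rassf4 and in a UTR of Tmem72, and chr1:177681120-177681639, 48175 bp from 1700016C15Rik. At Rassf4 the mean was 29.4 CPM in WT-GMP, and the URE-GMP libraries held 4.89, 9.42 and 1.59 CPM, a mean of 5.30 CPM that was 3.24 CPM without replicate 2. At 1700016C15Rik the WT-GMP mean was 23.4 CPM and the URE-GMP libraries held 1.96, 4.81 and 1.05 CPM, a mean of 2.60 CPM that was 1.5 CPM without replicate 2.

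**Figure D3:**
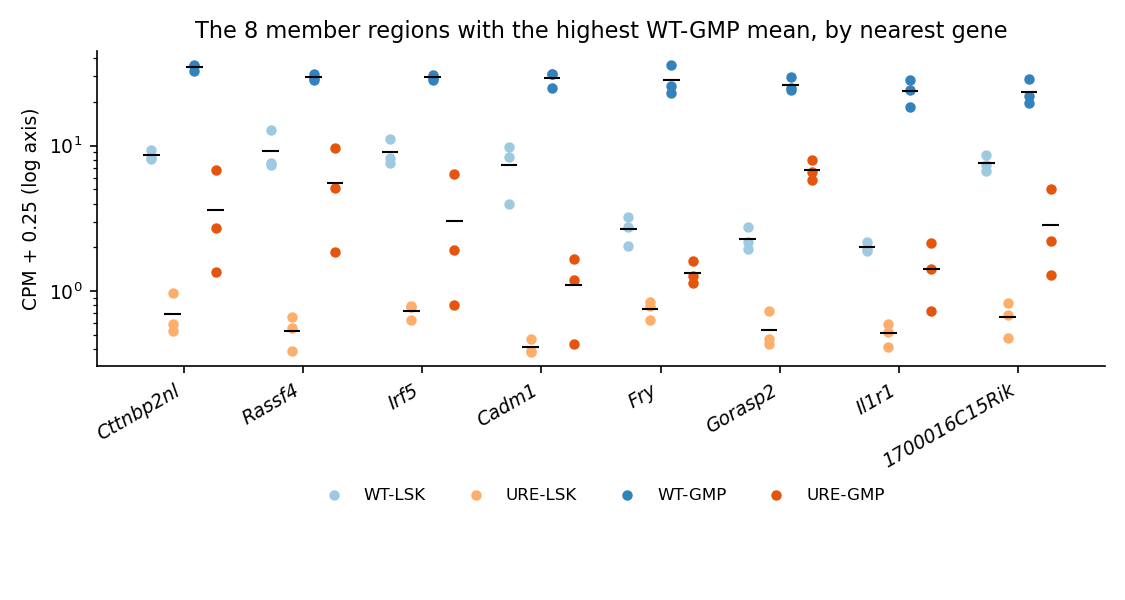
CPM plus 0.25, on a log axis, of the 8 members with the highest WT-GMP mean, named by the nearest protein-coding gene. Points are libraries and short lines the mean of 3. In each region WT-GMP is the highest group and URE-LSK the lowest in mean, and URE-GMP lies between them.

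The members with the lowest ratios of URE-GMP to WT-GMP included, beside those at Cadm1 and Fry, 1 in an intron of Nckap1, which encodes a subunit of the actin-regulating WAVE complex. There WT-GMP held 12.9, 18.9 and 15.0 CPM and URE-GMP 0.367, 0.643 and 0.273. From URE-LSK levels of 0.0454, 0.0820 and 0.108 this was still a step of 2.51 ± 0.44 (edgeR adjusted p = 0.000109). At chr10:83910684-83911341 and chr1:77280453-77280980, whose nearest genes 1500009L16Rik and Epha4 lie 172775 and 96627 bp away, neither URE group had a mean over 0.172 CPM. The first read 10.6, 8.45 and 8.61 CPM in WT-GMP. Its URE libraries held 0.0204, 0.273 and 0.159 CPM in GMP and 0.0907, 0.273 and 0.152 CPM in LSK, and its URE step was -0.01 ± 0.64 (edgeR adjusted p = 0.994, and -0.86 without URE-GMP replicate 2). The step at the second was 1.02 ± 0.58 (edgeR adjusted p = 0.128).

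The 3 members called lower in URE-GMP than in URE-LSK lay in introns far from a protein-coding start site. The first, chr13:106760667-106760894, was in the long non-coding RNA gene Gm30411, 75415 bp from the start of Ipo11, a nuclear import receptor gene. There URE-LSK held 0.590, 0.492 and 0.412 CPM, close to the 0.503, 0.780 and 0.691 CPM of WT-LSK. URE-GMP held 0.122, 0.193 and 0.25 CPM and WT-GMP 3.63, 2.93 and 2.03 CPM. The site thus gained accessibility in WT and lost it in URE, without overlap between the libraries of either pair (log2 step in URE -1.33 ± 0.39, edgeR adjusted p = 0.00701). The same direction was found at chr5:99414387-99414658 in Rasgef1b (-1.77 ± 0.56, edgeR adjusted p = 0.0101). At chr2:124385757-124386068 in Sema6d no URE-GMP library held more than 1 count and no URE-LSK library more than 4, so that its fitted step of -2.57 ± 0.94 (edgeR adjusted p = 0.0238) depends on the prior count. Leaving out 1 library ended the call at Rasgef1b (without URE-LSK replicate 3, step -1.29, edgeR adjusted p = 0.0795) and at Sema6d (without that library, or URE-GMP replicate 2 or 3, steps of -2.06, -2.02 and -2.22, edgeR adjusted p = 0.138, 0.108 and 0.0655), and at Sema6d the step was -4.27 without URE-GMP replicate 1.

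Sequence was not used by the rule. The ETS-IRF composite motif was present in 756 members (33.3%), against 14% of all regions, 19.2% of the regions that passed the WT criteria and 15.9% of the comparison regions. The PU.1 motif GAGGAAGT was in 15.1% of members, 10.5% of all regions and 11.3% of comparison regions, and its core GAGGAA in 60.5%, 46.9% and 51.9%. Neither the core nor the composite was found in 608 members (26.8%). Members were shorter (median 299 bases, against 346 in the comparison regions and 322 in all), so the shares were also counted in the central 200 bases. There the composite was in 27.3% of members and 9.08% of comparison regions, and the PU.1 motif in 12.4% and 7.17%. The longer AGAGGAAGT was in 6.16% of members and 4.45% of all regions over the whole region. Both strands were searched for every motif, and the core lies within GAGGAAGT and AGAGGAAGT.

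The C/EBP motif TTGCNNAA showed the opposite order between both sets. It was in 24.2% of members and 48.9% of comparison regions, against 20.5% of all regions. The RUNX motif AACCACA was in 10.8% of members, 17.9% of comparison regions and 17.3% of all. For the AP-1 motif TGANTCA the shares were 15.4%, 17.3% and 15.1%, and for the IRF pair GAAANNGAA, added after the data were seen, 16.5%, 14.9% and 13.8%. The ETS motif CCGGAAGT, bound by other ETS factors, was in 0.352% of members, 0.816% of comparison regions and 1.88% of all. Shares in members and in all regions were 16.2% and 15.7% for the motif AGATAA of the Gata factors. They were 17.3% and 20.6% for the MYB motif AACGG, and 1.72% and 1.45% for the NF-kB motif GGGANTTTC. The KLF motif GGGTGTGG was in 3.43% of members and 5.16% of all regions.

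Within the regions that passed the WT criteria, motif shares changed along the ratio of URE-GMP to WT-GMP. In the central 200 bases the composite was in 28.2% of the 735 members with the lowest ratios, in 26.8% of the other 1536 members, in 16.7% of the 804 regions just above the threshold, and in 5.14% of the 3524 regions in which URE-GMP exceeded 1.5 times WT-GMP. The C/EBP motif went the other way, from 14.7% and 20.0% in both groups of members to 27.6% and 37.9%. The PU.1 motif was in 12.7%, 12.2%, 15.2% and 2.67% of these groups, so its share was no higher in members than in the regions next to them. Median lengths of these groups ran from 289 to 402 bases, and the central window is the same for all.

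**Figure D4:**
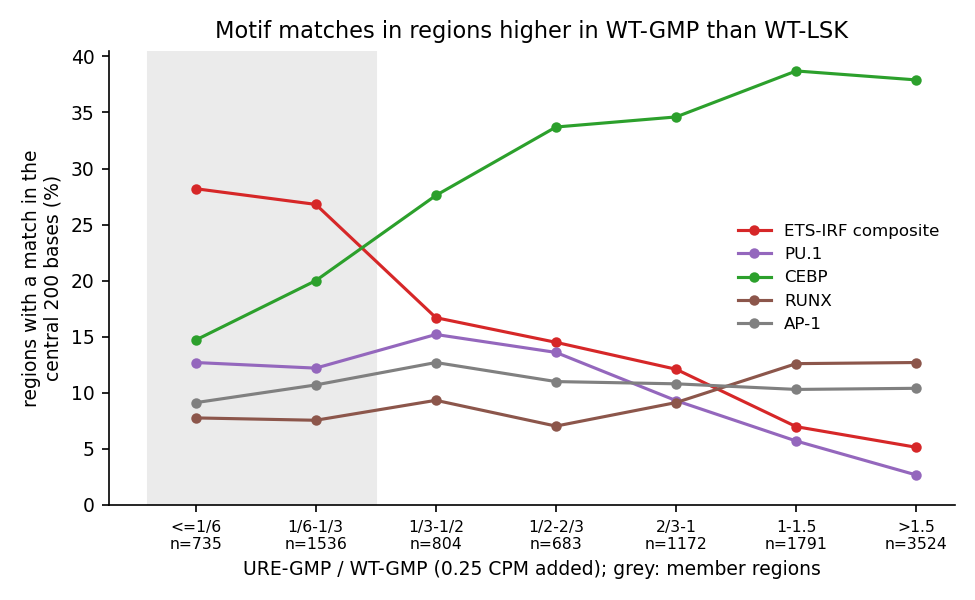
Share of regions with a motif match in the central 200 bases, by ratio of URE-GMP to WT-GMP, among the 10245 regions that passed the WT criteria. The number of regions in each bin is given below it and the grey area marks the members. The composite falls from 28.2% to 5.14% along the axis and the C/EBP motif rises from 14.7% to 37.9%.

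Matches in members also lay near the middle of the region. Of 857 composite matches in members 477 (55.7%) were within 50 bases of the middle, against 28.3% of 519 matches in comparison regions. For the PU.1 motif these shares were 57.9% and 37.2%. The C/EBP motif was close to the middle in both sets, in 42.6% of matches in members and 46.4% in comparison regions. Members with a composite and those without differed little in level. Their median WT-GMP levels were 4.10 and 3.83 CPM, their median URE-GMP levels 0.535 and 0.547 CPM, and 77.4% and 80.5% of them were called higher in URE-GMP than in URE-LSK. Members with the C/EBP motif had a URE step of 2.55 at the median and 85.8% of them were called, against 2.16 and 77.4% of members without it. Those with the C/EBP motif also had higher median levels in WT-GMP (4.37 against 3.79 CPM) and URE-GMP (0.653 against 0.519 CPM). Their WT step was larger too, at 2.71 against 2.56. What part the levels had in the calls was not tested.

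**Figure D5:**
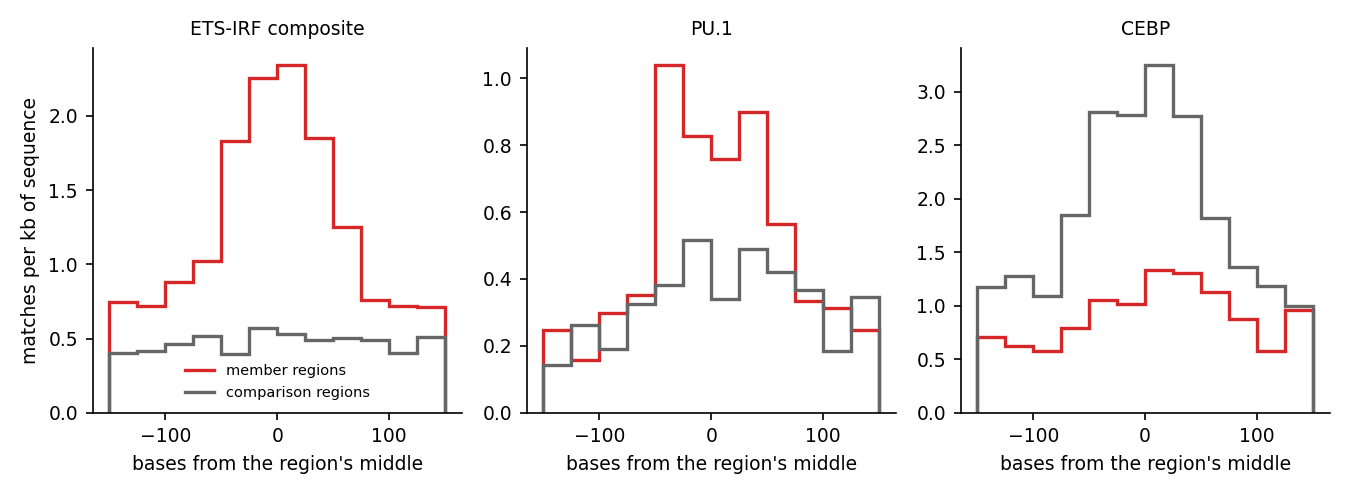
Matches per kb of sequence by distance from the middle of the region, in bins of 25 bases, for 3 motifs in members and in comparison regions. Composite matches peak at the middle in members, at 2.34 per kb, and have no such peak in comparison regions.

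Most members lay away from promoters. Within 500 bp of a start site of any annotated gene were 168 members (7.40%), 7.51% of the comparison regions and 18.9% of all regions. The middle of the region was in an intron in 1190 members, between genes in 906, in a non-coding exon in 66, in a UTR in 60 and in a coding exon in 49. A protein-coding start site lay within 100 kb of 2017 members, and 1648 genes were the nearest to at least 1 of them. The nearest gene is a matter of position and not of regulation.

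Members were spread over many genes, and 1359 genes had 1 each. The gene with most was Rin2, an exchange factor of Rab GTPases, with 7 members among its 31 regions, between chr2:145684934 and 145867029. Their WT-GMP means ran from 2.48 to 5.17 CPM and their URE-GMP means from 0.0889 to 0.721 CPM, and 2 of the 7 were called higher in URE-GMP than in URE-LSK. 1700016C15Rik had 5 members of 13 regions, and 13 genes had 4. Among the latter were Fry, Pilra, an inhibitory receptor gene of myeloid cells, and Fam129a. Pilra had 4 members among only 5 regions, with WT-GMP means of 5.20 to 11.7 CPM and URE-GMP means of 0.656 to 1.73 CPM, and all 4 were called higher in URE-GMP than in URE-LSK. The same call was made in 79.4% of all members and 27.6% of all regions.

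Genes were looked up from 11 lists of 253 genes. Of these, 62 were the nearest gene of 87 members, and 75 of the 87 (86.2%) were called higher in URE-GMP than in URE-LSK, against 79.4% of all members and 27.6% of all regions. Genes of other blood lineages (23 genes, among them Gata1 and Cd3e) had 0 members among 124 regions, where the share of all regions gives 2.32. Members were 1.87% of all regions. The highest shares of a list's regions that were members were 7.31% for phagocyte oxidase and lysosome genes (16 of 219), 6.53% for Fc receptors, integrins and surface proteins (19 of 291) and 5.19% for pattern recognition and inflammasome genes (8 of 154). For transcription factors of myeloid progenitors it was 2.64% (18 of 681), and for primary granule genes 1.85% (1 of 54, at Ms4a3), both close to the share of all regions. No member had Mpo, Elane or Spi1 as its nearest gene.

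Among surface receptors, the member 6642 bp upstream of Fcgr1, the high-affinity receptor of IgG, held 14.5, 19.9 and 18.3 CPM in WT-GMP against 2.26, 5.80 and 2.27 CPM in URE-GMP. URE-LSK libraries held 0.930, 1.75 and 2.08 CPM, a URE step of 1.21 ± 0.34 (edgeR adjusted p = 0.00496) that was 0.58 (edgeR adjusted p = 0.0651) without URE-GMP replicate 2. Fcgr1 is a mark of monocytes rather than neutrophils. The member at Cd14, the lipopolysaccharide co-receptor, had means of 15.2 ± 5.42 (SD, n = 3) CPM in WT-GMP against 4.55 ± 1.74 CPM in URE-GMP. Here URE-GMP replicate 3 was the highest at 6.07 CPM, unlike at most members. At the start of Cx3cr1, the fractalkine receptor, a member had means of 6.49 ± 1.24 CPM in WT-GMP against 1.11 ± 0.337 CPM in URE-GMP, and a URE step of 2.54 ± 0.35 (edgeR adjusted p = 7.77e-06). The member near Ccr1, a receptor of inflammatory chemokines, had at most 1 count in a URE-LSK library, so no fold is given. Its URE-GMP libraries held 0.184, 0.739 and 0.0682 CPM and its WT-GMP libraries 3.76, 4.19 and 3.10.

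Among innate sensors and their regulators, the member in an intron of Tlr2, which senses bacterial lipoproteins, held 13.6, 15.8 and 11.1 CPM in WT-GMP against 1.69, 2.56 and 0.819 CPM in URE-GMP (URE step 3.47 ± 0.48, edgeR adjusted p = 8.5e-06, and 4.14 without URE-LSK replicate 2). The member 18041 bp upstream of Tnfaip3, an inhibitor of NF-kB signalling, held 10.3, 14.5 and 11.2 CPM in WT-GMP against 2.92, 5.48 and 2.16 CPM in URE-GMP (URE step 2.51 ± 0.33, edgeR adjusted p = 4.88e-06). In the cytokine receptor list the member 23259 bp upstream of Tnfrsf1b, a TNF receptor, and in an intron of its neighbour Tnfrsf8 had means of 12.9 ± 4.38 CPM in WT-GMP against 2.46 ± 1.02 CPM in URE-GMP. The 8 members of the pattern recognition list were all called higher in URE-GMP than in URE-LSK, which 79.4% of all members and 27.6% of all regions were too.

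Among lysosomal genes, Ctsh, which encodes cathepsin H, had 4 members. The strongest, chr9:89988820-89989576, lay 64576 bp upstream in an intron of Rasgrf1 and held 12.6, 11.7 and 9.65 CPM in WT-GMP against 0.612, 3.42 and 0.387 CPM in URE-GMP, with replicate 2 far above the others. Its URE step of 2.61 ± 0.69 (edgeR adjusted p = 0.00326) was 1.0 (edgeR adjusted p = 0.0712) without that library. The next, chr9:90033820-90034301, had the same order of libraries, with 0.938, 3.33 and 0.387 CPM in URE-GMP. Of the 16 members of this list 10 (62.5%) were called higher in URE-GMP than in URE-LSK, against 79.4% of all members and 27.6% of all regions. For antigen presentation, H2-DMb1, which loads peptides on MHC class II, had 1 member with means of 7.48 ± 1.35 CPM in WT-GMP against 0.370 ± 0.299 CPM in URE-GMP. The URE step was 2.07 ± 0.58 (edgeR adjusted p = 0.00465) and, without URE-GMP replicate 2, 1.13 (edgeR adjusted p = 0.0697).

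Among signalling genes, the member over the start of Tyrobp, the adaptor of many activating myeloid receptors, held 13.8, 14.8 and 12.7 CPM in WT-GMP against 3.08, 4.79 and 1.80 CPM in URE-GMP (URE step 2.68 ± 0.33, edgeR adjusted p = 2.98e-06). The member in an intron of Dock8, a guanine nucleotide exchange factor, had means of 13 ± 1.96 and 3.92 ± 1.31 CPM. Near the protease genes of later neutrophil granules the levels were lower. WT-GMP and URE-GMP means were 5.12 ± 0.753 and 0.666 ± 0.192 CPM at Mmp9 and 3.37 ± 1.04 and 0.689 ± 0.481 CPM at Mmp8. In an intron of Fli1, an ETS factor of blood stem cells, LSK libraries held 2.41, 2.86 and 1.71 CPM in WT and 1.13, 1.01 and 1.52 CPM in URE, a smaller difference than at most members. The URE step there was 0.99 ± 0.38 (edgeR adjusted p = 0.0311), just under the fold threshold, and 0.29 without URE-GMP replicate 2.

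The promoters of the genes nearest to members were then compared, with the members themselves left out. These are other regions of the same libraries in a contrast the rule used, so the counts are descriptions. Of 2443 promoter regions of 1443 genes, 294 (12%) were called lower and 120 (4.91%) higher in URE-GMP than in WT-GMP by edgeR. Over all 19390 promoter regions of protein-coding genes the shares were 8.24% and 5.02%. In LSKs the calls were 277 lower (11.3%) and 103 higher (4.22%) with the deletion, against 7.84% and 3.82% of all promoter regions. The median log2 difference in GMP was 0.11 at these promoters and 0.16 over all promoter regions, and most of them were called in neither direction.

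For the 62 list genes, 100 promoter regions were left, of which 19 at 16 genes were called lower in URE-GMP and 3 higher, and 30 lower and 4 higher in URE-LSK. Of all promoter regions of protein-coding genes, 8.24% were called lower and 5.02% higher in URE-GMP, and 7.84% and 3.82% in URE-LSK. Examples were picked after their values were seen. At Irf5, chr6:29528641-29529674 held 29.9 ± 2.36 CPM in WT-GMP against 12.4 ± 3.36 CPM in URE-GMP (SD, n = 3). Another promoter region of Irf5, chr6:29526406-29527046, was not called, with 7.99 ± 1.03 and 5.55 ± 1.19 CPM. At Fcgr1, chr3:96293756-96294300 held 14.9 ± 0.531 and 3.66 ± 0.773 CPM, and at Ctss, the gene of cathepsin S, chr3:95526638-95526950 held 4.04 ± 0.460 and 0.619 ± 0.293 CPM. The 3 regions called higher were at Ctsb, Clec12a and Prkcb. WT-GMP and URE-GMP means there were 3.05 and 19.2 CPM, 2.62 and 8.59 CPM, and 4.46 and 11.1 CPM. Each of these genes also had a promoter region that was not called in GMP. Tyrobp had a promoter region called lower in URE-LSK but not in URE-GMP. There, chr7:30412537-30413344 held 21.6 ± 1.11 CPM (WT) and 3.19 ± 0.978 CPM (URE) in LSK, and 34.4 ± 3.08 and 21.2 ± 2.38 CPM in GMP. This promoter region kept the larger part of its WT level in URE-GMP, while the Tyrobp member, by the rule, was at most at 1/3 of its own.

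The thresholds cut through a continuous range. Just inside and outside the ratio of URE-GMP to WT-GMP were a region near Siglec1 with means of 3.41 CPM in WT-GMP against 0.969 in URE-GMP, and 1 near Maml1 with 2.63 and 0.710. For WT-GMP to WT-LSK these were a region near Sp8, with 2.33 CPM in WT-GMP and 0.610 in WT-LSK, and 1 near Cybrd1, with 1.87 and 0.456. At the WT-GMP minimum a region near Acacb had a mean of 1.753 CPM and 1 near Nynrin 1.744 CPM. The largest ratio of URE-LSK to WT-LSK in a member was 1.49, near Cplane1.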

How the data were processed

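Whole-number counts per region were used as deposited, 1 table of 121336 regions and 12 libraries. Per the labels and the study's methods, the authors trimmed reads (cutadapt), aligned them to GRCm38 with Bowtie2, removed duplicates and non-primary chromosomes, called peaks per group with Genrich, merged them (bedtools) and made the counts with featureCounts. The counting unit (a fragment or a Tn5 cut) is not given in the sources used here. Starts in the table were taken as 0-based and are printed 1-based.

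CPM was computed from column sums. Counts of all 12 libraries were fitted with edgeR 4.0.16 (R 4.3.3, TMM scaling, quasi-likelihood test, 4 groups). filterByExpr kept 121336 of 121336 regions, and the biological coefficient of variation was 0.185. A call needed a Benjamini-Hochberg adjusted p under 0.05 over all regions and an absolute log2 fold change over 1. DESeq2 1.42.0, other scalings and filters, a replicate block and leaving out each library were alternatives. The procedure was tested on simulated data. Total counts per library set the precision, 3 counts were taken as the floor, and intervals of counting error do not cover biological spread.

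Named regions were the 8 members highest in WT-GMP, the 5 with the lowest ratio of URE-GMP to WT-GMP, the 2 highest of each gene list, the highest of the 5 genes with most members, the regions next to each threshold, and the 3 with the smallest p in each direction. The members and lists were chosen with earlier results of these data known. Genes and features came from GENCODE M21 and sequences from RefSeq GRCm38.p6. Same-numbered libraries of URE-GMP and WT-GMP deviated together (correlations of deviations from the group means 0.115, 0.234 and 0.401). The reported calls did not pair libraries by number, and the replicate block was an alternative fit. The labels do not say what a number stands for. The replicate block gave 295 lower promoters, against 294. The methods give 3 mice per genotype and cell type, and do not state whether LSKs and GMPs came from the same mice. Some items are not reported here.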

Additional observations from a re-analysis of the deposited data

Results flagged for a closer look

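At 2 of the named members, every WT library of GMP lay above every WT library of LSK, while every URE library of GMP lay below every URE library of LSK. The share of all regions with this URE order is not given here. The WT order was chosen by the rule and held in all 2271 members. By the edgeR call, which is a different measure, 21.6% of all regions were lower in URE-GMP than in URE-LSK, against 3 members. The fitted log2 step from LSK to GMP in URE was -1.33 at chr13:106760667-106760894, near Ipo11, and -2.57 at chr2:124385757-124386068 in Sema6d. WT steps were 2.19 and 2.92. The difference between the genotypes was not tested, since the rule chose the WT step. At Sema6d no URE library held more than 4 counts.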

How the results depend on the processing

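The number of members followed the thresholds. Against 2271, there were 613 with 1 CPM added, 1194 with a WT-GMP mean of at least 4, 5861 with folds of 2 and 946 with folds of 4, and 1868 to 2819 when 1 library was left out. Without WT-GMP replicate 2 the number was the lowest and without WT-GMP replicate 3 the highest. The number of members called higher in URE-GMP than in URE-LSK was 1804, fell to 586 with a mean CPM of at least 2, where fewer members were tested, and ran from 1368 (without URE-GMP replicate 2) to 1926 with 1 library left out. The shares of all regions called in these settings are not given here. The 294 promoters called lower were 537 without a fold threshold, 445 within 1000 bp, and 284 to 319 with 1 library left out. The share with a PU.1 motif, 15.1%, was 12.4% in the central 200 bases, 60.5% for the core and 6.16% for the longer motif. The promoter share of 7.40% was 11.4% within 1000 bp and 4.71% for protein-coding genes. In left-out libraries the mean of the 3 median log2 ratios was 2.07 for WT-GMP to WT-LSK and -2.30 for URE-GMP to WT-GMP. These were 1.83 and -1.93 with 1 CPM added, 1.89 with replicate 3 left out for the first, and -1.92 with replicate 2 left out for the second. Among 595 values of 35 named regions, 576 kept direction and side of the threshold, 10 lost and 5 gained the call, and 4 changed sign. The last 4 were all at chr10:83910684-83911341 (near 1500009L16Rik), -0.01 as reported, with 0.033 by DESeq2, 0.045 with RLE size factors, 0.44 without URE-LSK replicate 2 and 0.49 without URE-GMP replicate 1. Its step was -0.86 without URE-GMP replicate 2. The causes were not tested. Low counts in URE-LSK limited the folds of members there.

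With the replicate block, 1794 members were called higher in URE-GMP than in URE-LSK. The correlations of deviations between same-numbered libraries of URE-GMP and URE-LSK were 0.0957, 0.312 and 0.172, and 6 of 6 libraries correlated best with their own number. This is a hint from the data and not the design. Whether same-numbered LSK and GMP libraries came from the same mouse is not stated. The block ended no call at the 35 named regions, and the promoters called lower were 295, against 294.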
